A study of Mus musculus with 7 samples.

Results

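This report describes 34 mouse genes of the hypoxia response and of glycolysis in gliomas that grew in the mouse brain. The members were taken from a list of named genes by symbol, and all 34 were measured among the 17422 genes tabulated. They comprise 2 hypoxia-inducible factor (HIF) alpha subunits, 19 genes that low oxygen is known to induce, and 13 enzymes of the glycolytic chain itself. Messenger RNA was profiled in 7 libraries sequenced on the BGISEQ-500 instrument. The labels give 3 gliomas driven by PDGF-B, 3 gliomas driven by EGFRvIII and 1 culture of neural progenitors carrying PDGF-B, and they call the gliomas biological replicates. For the gliomas labelled PDGF-B, wild-type Balb/c neural precursors of embryonic day 14 received a retrovirus with PDGF-B, a ligand of platelet-derived growth factor receptors, and the red fluorescent protein DsRed. For those labelled EGFRvIII, Ink/Arf -/- Balb/c precursors, which lack the Cdkn2a tumour suppressors, received EGFRvIII, a truncated and constantly active epidermal growth factor receptor, and DsRed. After 10 days in medium with human bFGF and EGF, each graft placed 20000 cells intracranially in an adult Balb/c mouse. Tumours were taken at the first neurological symptoms and sorted for DsRed. The culture held wild-type embryonic day 14 progenitors with PDGF-B, also sorted for DsRed, and had no replicate. The sources used here do not state the day of its harvest. By the labels, oncogene and genotype differed together between the glioma groups, so their parts cannot be told apart. The EGFRvIII gliomas, again by the labels, differed from the culture in both as well as in growth in the brain.

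The genes that check the labels went against them. Egfr had 4952, 5109 and 3594 CPM (reads scaled to library size) in the gliomas labelled PDGF-B, against 41.2, 26.9 and 25.6 CPM in those labelled EGFRvIII and 282 CPM in the culture. Pdgfb had 1.95, 2.97 and 4.88 CPM in the gliomas labelled PDGF-B, against 386, 284 and 277 CPM in those labelled EGFRvIII and 245 CPM in the culture. Cdkn2a, the locus deleted in the EGFRvIII model, had 3.52, 2.94 and 4.99 CPM in the PDGF-B label group, against 22.7, 26.1 and 11.1 CPM in the EGFRvIII label group and 10.7 CPM in the culture. Whether the reads came from the introduced or the resident copies could not be seen in gene totals. Whether the labels of the glioma groups were exchanged was not tested. If they were, the gliomas labelled EGFRvIII would be the ones that match the culture in oncogene and genotype. All directions given here follow the labels, and PDGF-B and EGFRvIII gliomas stand for the gliomas so labelled. The libraries held between 32513754 and 39062584 recovered reads, and 1 read was worth between 0.0273 and 0.0303 CPM. Of the 34 members, 4 were under 1 CPM in at least 1 library, none was at 0 reads, and all 34 reached 1 CPM in at least 3 libraries.

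Cells sense oxygen through prolyl hydroxylases of the Egln family, which mark HIF alpha subunits for destruction while oxygen is present. When oxygen is short, Hif1a and Epas1 (HIF-2 alpha) proteins persist, pair with Arnt and bind short DNA elements with the core ACGTG or GCGTG near their target genes. These targets raise vessel growth, glucose uptake, lactate export and the flow of glucose to lactate, a pattern well known in high-grade glioma. The control of the alpha subunits is largely at the protein level, which messenger RNA does not show.

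The promoters of 5 members are shown. Hk2, Slc16a3, Pfkl and Ldha were called between the glioma groups only when PDGF-B replicate 3 was left out, and Adm was called between gliomas and culture. Other members called in the same way, such as Pdk1 and Pfkfb3, are not shown. The 5 are RefSeq sequences of build GRCm38.p6, each the 250 bases before the annotated transcript start, read in the direction of the gene. Capitals mark ACGTG or GCGTG as read on either strand, so that CACGT and CACGC are the same elements on the other strand, and CACGTG holds ACGTG on both strands.
Hk2: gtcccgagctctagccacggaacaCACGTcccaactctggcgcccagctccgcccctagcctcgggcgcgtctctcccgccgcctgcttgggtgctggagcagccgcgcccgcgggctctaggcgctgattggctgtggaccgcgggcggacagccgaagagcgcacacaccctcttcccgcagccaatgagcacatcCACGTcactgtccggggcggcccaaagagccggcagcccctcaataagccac
Slc16a3: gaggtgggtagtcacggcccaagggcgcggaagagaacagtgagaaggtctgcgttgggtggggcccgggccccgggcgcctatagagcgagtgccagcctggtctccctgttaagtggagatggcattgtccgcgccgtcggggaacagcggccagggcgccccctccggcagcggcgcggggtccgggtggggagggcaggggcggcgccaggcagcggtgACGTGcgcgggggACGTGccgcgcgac
Pfkl: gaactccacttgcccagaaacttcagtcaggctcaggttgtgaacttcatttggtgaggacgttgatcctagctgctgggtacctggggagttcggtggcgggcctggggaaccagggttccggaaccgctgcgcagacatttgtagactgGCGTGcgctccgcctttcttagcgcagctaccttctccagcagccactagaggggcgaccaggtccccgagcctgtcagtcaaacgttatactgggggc
Ldha: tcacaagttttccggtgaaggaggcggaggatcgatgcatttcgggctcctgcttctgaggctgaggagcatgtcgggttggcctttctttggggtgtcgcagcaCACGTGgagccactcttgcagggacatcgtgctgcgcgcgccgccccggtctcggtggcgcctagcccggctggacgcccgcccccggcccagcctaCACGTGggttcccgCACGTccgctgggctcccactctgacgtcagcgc
Adm: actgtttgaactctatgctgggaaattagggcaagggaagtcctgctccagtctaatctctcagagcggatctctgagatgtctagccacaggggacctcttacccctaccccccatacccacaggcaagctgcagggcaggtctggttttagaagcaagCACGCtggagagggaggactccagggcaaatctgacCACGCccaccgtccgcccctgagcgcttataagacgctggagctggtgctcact
The Hk2 stretch lies at chr6:82774455-82774704 on the minus strand and holds ACGTG 2 times. The Slc16a3 stretch, at chr11:120948817-120949066 on the plus strand, also holds it 2 times, both within the last bases before the start. The Pfkl stretch, at chr10:78009808-78010057 on the minus strand, holds GCGTG 1 time. The Ldha stretch, at chr7:46845554-46845803 on the plus strand, holds ACGTG 5 times when both strands are counted, 4 of them in 2 copies of CACGTG. The table lists a further Ldha start downstream, whose window holds no ACGTG. The Adm stretch, at chr7:110627407-110627656 on the plus strand, holds GCGTG 2 times. A RefSeq promoter was listed for 31 of the 34 members. Epas1, Ndrg1 and Slc2a3 had no entry. Over windows of 250 bases before and 50 bases after the start, ACGTG stood in the promoter of 12 of 17 hypoxia-induced genes, of 7 of 13 enzymes and of 21.8% of all 27025 RefSeq genes. GCGTG stood in 12 of 17 hypoxia-induced genes, in 7 of 13 enzymes and in 35.2% of all genes. The windows of Car12, Tpi1, Gpi1 and Eno2 held neither element, while each promoter shown holds at least 1. These are matches of letters, and no binding was measured.

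Over all genes, PDGF-B replicate 3 stood apart from PDGF-B replicates 1 and 2. On the first principal component of all genes, which held 55.7% of the variance over the 6 gliomas, PDGF-B replicates 1, 2 and 3 stood at -89.3, -88.7 and -5.77, against 37.2, 102 and 44.2 for EGFRvIII replicates 1, 2 and 3. Over the members alone the first component held 78.7%, with -6.21, -5.41 and 3.01 for the PDGF-B gliomas, against 1.44, 4.73 and 2.44 for the EGFRvIII gliomas. Markers of microglia and macrophages, immune cells of the host, were present although the gliomas were sorted for DsRed. Their 18 genes summed to 559, 763 and 2314 CPM in the PDGF-B gliomas, against 8752, 18535 and 8184 CPM in the EGFRvIII gliomas and 22.8 CPM in the culture, where C1qb, Trem2, Tyrobp and Mrc1 were at 0 reads. Of these 18 genes, 16 were called lower in the PDGF-B gliomas, against 2.63% of all genes. EGFRvIII replicate 2 was the highest library in their sum, as it was for most of the enzymes. The part of these markers in the results on hypoxia and glycolysis genes was not tested. Mitosis genes summed to 1708, 232 and 1770 CPM in the PDGF-B gliomas, against 1367, 1199 and 1657 CPM in the EGFRvIII gliomas, with PDGF-B replicate 2 the lowest. The part of mitosis genes in the result was not tested. Early response genes that tissue dissociation is known to induce were called lower for 4 of 16 in the PDGF-B gliomas, against 2.63% of all genes. They summed to 1363 to 3126 CPM there and to 2979 to 4014 CPM in the EGFRvIII gliomas, and their part in the result was not tested. The mean log2 CPM of 8 astrocyte markers was 4.24, 5.00 and 7.33 in the PDGF-B gliomas, against 5.10, 6.54 and 6.29 in the EGFRvIII gliomas and 6.20 in the culture, so it too was lowest in PDGF-B replicates 1 and 2. Their part was not tested either.

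Within the PDGF-B group, replicates 1 and 2 were low and replicate 3 was high for nearly all of the 34 members, and for most of them replicates 1 and 2 lay under every EGFRvIII glioma. No member passed an adjusted p of 0.05 in limma between PDGF-B and EGFRvIII gliomas, whereas 3.35% of all genes did. At an unadjusted p under 0.05, limma counted 12 of 34 members, 11 of them lower and 1 higher in the PDGF-B gliomas, against 16.7% of all genes in either direction, 10.2% lower and 6.49% higher. The median log2 fold change was -0.89 over the hypoxia-induced genes, -0.73 over the enzymes and -0.00 over all genes. The split inside the PDGF-B group was noticed after the values were seen and is a description. In 28 of 34 members both low replicates lay under every EGFRvIII glioma, as they did in 23.5% of all genes. In 32 of 34 members replicate 3 exceeded both of them, as it did in 39.5% of all genes. Hif1a and Epas1 were the exceptions. In bulk RNA, fewer cells of a type and less RNA per cell cannot be told apart.

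**Figure D1:**
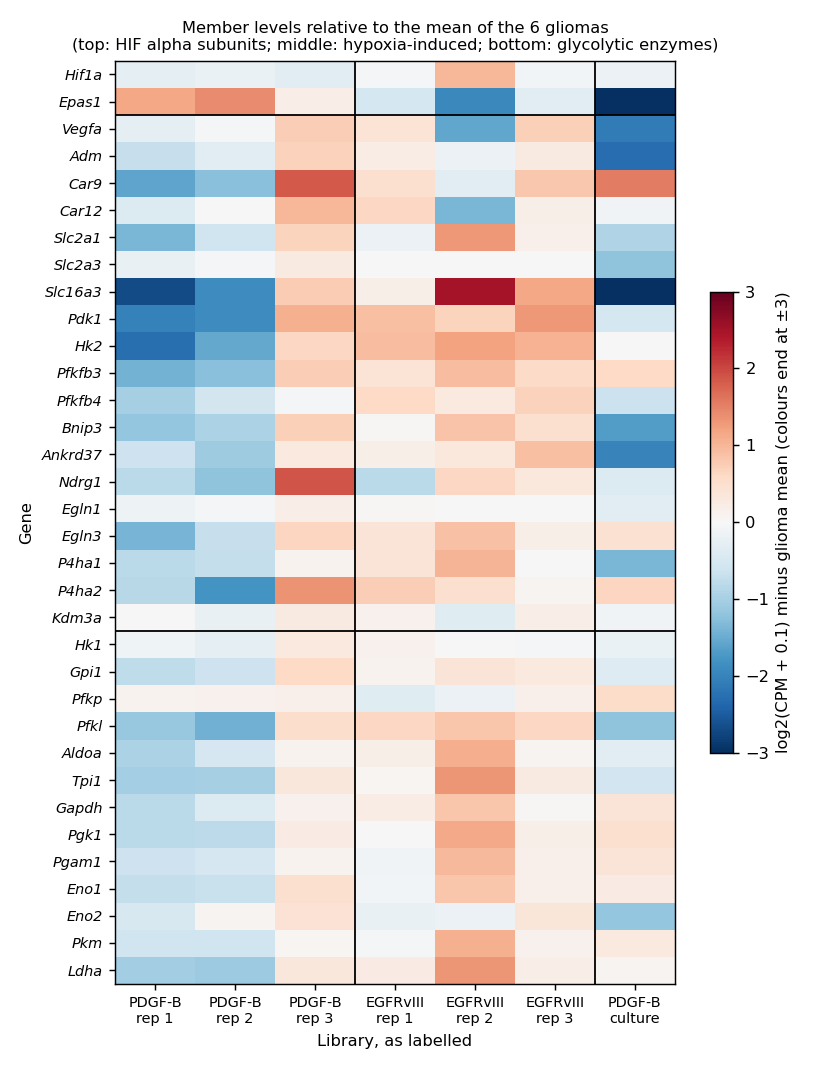
Levels of the 34 members in the 7 libraries, each gene coloured by log2(CPM + 0.1) minus its mean over the 6 gliomas. Columns are libraries and lines between rows part the HIF alpha subunits, the hypoxia-induced genes and the enzymes. PDGF-B replicates 1 and 2 are below the mean for most genes, while PDGF-B replicate 3 resembles the EGFRvIII columns, and EGFRvIII replicate 2 is the highest glioma for 17 of 34 members.

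Among the regulators, Epas1 stood apart from the other members. Epas1, at chromosome 17, 86753700 to 86833410, on the plus strand of mm10, had 342, 412 and 177 CPM in the PDGF-B gliomas, against 107, 40.1 and 122 CPM in the EGFRvIII gliomas and 10.7 CPM in the culture. It was the only member with every PDGF-B glioma above every EGFRvIII glioma, an order seen in 10.3% of all genes, and the culture lay under all 6. The log2 fold change between the glioma groups was 1.86 ± 0.49 (SE) with an adjusted p of 0.0985 in limma. Hif1a had 200.2, 214 and 194 CPM in the PDGF-B gliomas, against 235, 487 and 231 CPM in the EGFRvIII gliomas and 219 CPM in the culture. Its groups did not overlap either, with the PDGF-B gliomas lower, but EGFRvIII replicate 2 alone was far above the rest, and the log2 fold change of -0.56 ± 0.31 had an adjusted p of 0.407 in limma. Per exon kilobase, Hif1a averaged 44.1 CPM and Epas1 35.8 CPM over the gliomas.

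No hypoxia-induced gene was called between the glioma groups, and Hk2, Pfkfb4 and P4ha1 had the smallest p of the class. Hk2, the inducible hexokinase that traps glucose in the cell, had 6.12, 10.1 and 45.3 CPM in the PDGF-B gliomas, against 56.1, 68.2 and 61.4 CPM in the EGFRvIII gliomas and 29.8 CPM in the culture. The groups did not overlap, yet replicate 3 of the PDGF-B gliomas lay close under the EGFRvIII range, and the log2 fold change of -2.13 ± 0.66 had an adjusted p of 0.158. Pfkfb4, which makes and degrades the activator of phosphofructokinase, had 3.96, 5.39 and 7.76 CPM in the PDGF-B gliomas, against 11.99, 9.71 and 12.9 CPM in the EGFRvIII gliomas and 5.01 CPM in the culture. These groups did not overlap either, and the log2 fold change was -1.05 ± 0.32 with an adjusted p of 0.147. P4ha1, a collagen prolyl hydroxylase subunit, had 71.04, 75.4 and 134 CPM in the PDGF-B gliomas, against 162, 253 and 124 CPM in the EGFRvIII gliomas and 47.9 CPM in the culture. Here PDGF-B replicate 3 lay above EGFRvIII replicate 3, and the log2 fold change was -0.94 ± 0.34 with an adjusted p of 0.225. In all, the groups failed to overlap in 4 members lower in the PDGF-B gliomas, namely Hif1a, Hk2, Pfkfb4 and Pfkl, where 12.6% of all genes did the same.

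Glucose enters by Slc2a1 and Slc2a3 and leaves as lactate by Slc16a3. Slc2a1 had 23.1, 39.3 and 95.7 CPM in the PDGF-B gliomas, against 53.2, 148 and 67.03 CPM in the EGFRvIII gliomas and 31.96 CPM in the culture. PDGF-B replicate 3 was above 2 of the EGFRvIII gliomas. Slc2a3, a high-affinity transporter, had 64.9, 72.1 and 90.5 CPM in the PDGF-B gliomas, against 74.2, 75.3 and 76.4 CPM in the EGFRvIII gliomas and 32.5 CPM in the culture. It differed little among the gliomas, and all 6 were above the culture. Slc16a3, a monocarboxylate transporter, had 2.68, 4.73 and 30.2 CPM in the PDGF-B gliomas, against 20.02, 102 and 39.8 CPM in the EGFRvIII gliomas and 1.97 CPM in the culture. Its PDGF-B replicate 3 stood between EGFRvIII replicates 1 and 3, while replicates 1 and 2 were far lower.

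The secreted and pH-regulating members had log2 fold changes between the glioma groups from -0.75 for Car9 to 0.40 for Car12. Vegfa, the main growth factor for vessels and per exon kilobase the most abundant hypoxia-induced member, had 237, 283 and 482 CPM in the PDGF-B gliomas, against 382, 97.02 and 475 CPM in the EGFRvIII gliomas and 66.9 CPM in the culture. EGFRvIII replicate 2 was the lowest glioma for Vegfa, although it was the highest for Slc2a1, Hk2 and most of the enzymes. Adm, a vasodilator peptide, had 18.1, 23.3 and 47.4 CPM in the PDGF-B gliomas, against 33.9, 25.96 and 35.4 CPM in the EGFRvIII gliomas and 5.93 CPM in the culture. The glioma groups overlapped, and all 6 gliomas were above the culture. Car9, a surface carbonic anhydrase used as a hypoxia marker, had 0.175, 0.242 and 2.84 CPM in the PDGF-B gliomas, against 1.05, 0.561 and 1.34 CPM in the EGFRvIII gliomas and 2.26 CPM in the culture. Its PDGF-B value of replicate 3 was the highest of all 7 libraries, but replicates 1 and 2 rested on 6 and 8 recovered reads. Vegfa, Car12, Kdm3a, a histone demethylase, and Epas1 were 4 of the 6 members for which PDGF-B replicates 1 and 2 were not both under every EGFRvIII glioma, and the others were the enzymes Pfkp and Eno2.

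The HIF feedback genes Egln1 and Egln3 differed in spread. Egln1, the main oxygen-sensing hydroxylase, had 104, 110.4 and 134 CPM in the PDGF-B gliomas, against 118, 115 and 116 CPM in the EGFRvIII gliomas and 92.4 CPM in the culture. The inducible Egln3 had 10.4, 17.1 and 43.2 CPM in the PDGF-B gliomas, against 36.3, 50.8 and 30.96 CPM in the EGFRvIII gliomas and 37.9 CPM in the culture. Egln1 was thus nearly level over the libraries, while Egln3 had 2 low libraries, PDGF-B replicates 1 and 2. Ankrd37, a small HIF target of little known function, had 2.74, 1.96 and 5.25 CPM in the PDGF-B gliomas, against 4.82, 5.26 and 8.002 CPM in the EGFRvIII gliomas and 0.984 CPM in the culture. It overlaps Ufsp2 on the other strand, the sources used here do not state whether counting used strand, and Ufsp2 held between 79.9% and 96.9% of the summed reads of the pair. Ndrg1, a stress-response gene, had 6.41, 4.82 and 41.9 CPM in the PDGF-B gliomas, against 6.45, 17.5 and 14.2 CPM in the EGFRvIII gliomas and 8.48 CPM in the culture, and P4ha2, a further collagen hydroxylase subunit, had 1.05, 0.485 and 5.07 CPM in the PDGF-B gliomas, against 3.30, 2.72 and 2.04 CPM in the EGFRvIII gliomas and 3.07 CPM in the culture. For both, PDGF-B replicate 3 was the highest of all 7 libraries. Neither passed the test in any comparison.

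**Figure D2:**
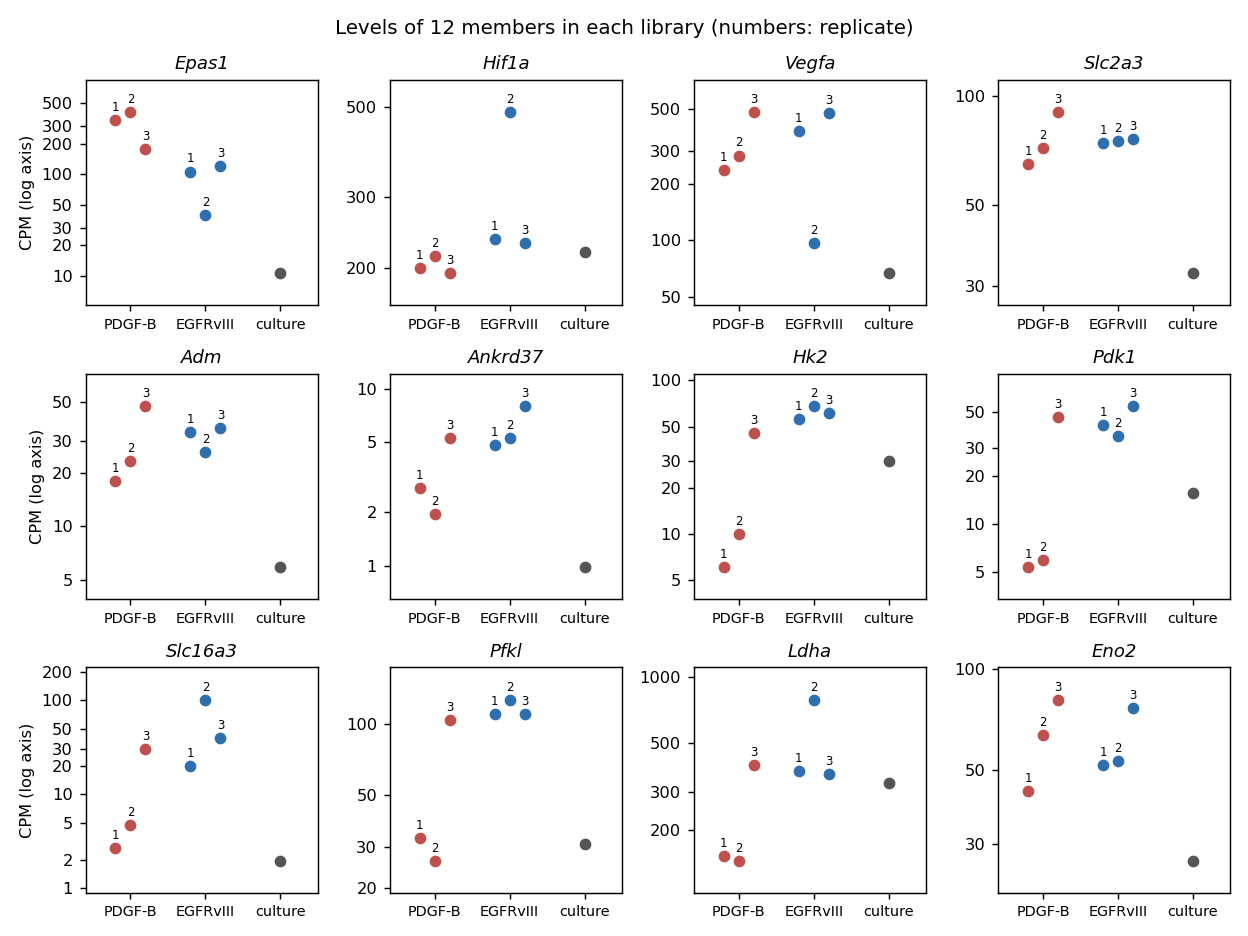
CPM of 12 members in each library on log axes that differ between panels, with PDGF-B gliomas, EGFRvIII gliomas and the culture from left to right. Each point is a library and numbers give the replicate. PDGF-B replicates 1 and 2 lie together at the low end of Hk2, Slc16a3, Pdk1, Pfkl and Ldha, and PDGF-B replicate 3 lies near the EGFRvIII gliomas.

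Leaving out PDGF-B replicate 3 changed the outcome, while leaving out any other single glioma left no member called. Those other fits called few genes of any kind: 0.023% without PDGF-B replicate 1, 0.0402% without PDGF-B replicate 2, and 0.121%, 0.0861% and 0.0402% without EGFRvIII replicates 1, 2 and 3. Without PDGF-B replicate 3, limma called 9 of 34 members between the glioma groups, against 7.36% of all genes. Epas1 was then higher in the PDGF-B gliomas, with a log2 fold change of 2.22 ± 0.48 and an adjusted p of 0.0419. Of the hypoxia-induced genes, 6 of 19 were lower. Pdk1, the kinase that keeps pyruvate out of mitochondria, had 5.36, 5.91 and 46.9 CPM in the 3 PDGF-B gliomas, against 41.7, 35.5 and 54.8 CPM in the EGFRvIII gliomas and 15.5 CPM in the culture. Its log2 fold change was -2.93 ± 0.27 without PDGF-B replicate 3 (adjusted p = 0.00260, limma) and -1.92 ± 0.78 with it (adjusted p = 0.280). Hk2 had -2.97 ± 0.27 without that library, with an adjusted p of 0.00269. Pfkfb3, the inducible maker of the phosphofructokinase activator, had 23.1, 25.9 and 102 CPM in the PDGF-B gliomas, against 82.2, 117 and 91.8 CPM in the EGFRvIII gliomas and 92.7 CPM in the culture. Bnip3, a mitophagy receptor, had 25.1, 29.2 and 92.1 CPM in the PDGF-B gliomas, against 57.7, 102 and 77.9 CPM in the EGFRvIII gliomas and 17.5 CPM in the culture. For both, PDGF-B replicate 3 lay within the EGFRvIII range. The log2 fold changes without it were -1.97 ± 0.22 for Pfkfb3, -1.51 ± 0.28 for Bnip3, -1.53 ± 0.32 for Egln3 and -3.58 ± 0.66 for Slc16a3, the widest of the 34. Among the enzymes, Pfkl and Ldha were lower. Pdk1, Pfkfb3, Bnip3, Egln3 and Slc16a3 were singled out after their values were seen.

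**Figure D3:**
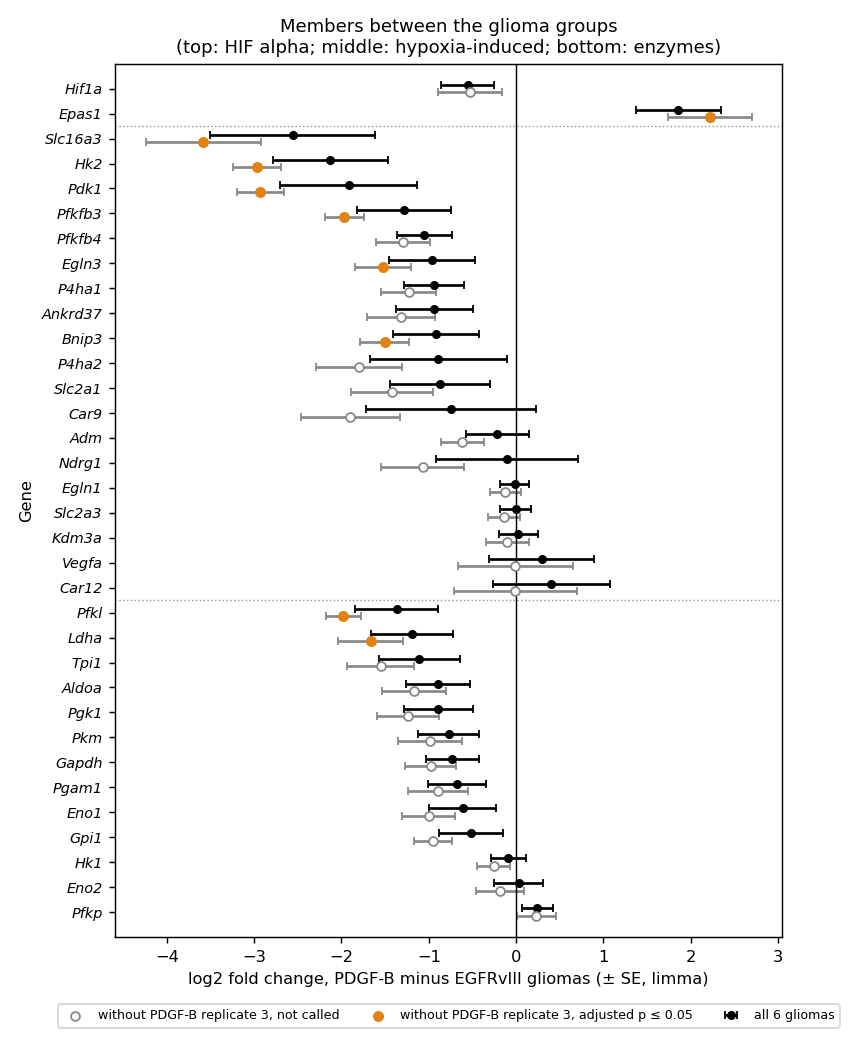
Log2 fold change of each member, PDGF-B minus EGFRvIII gliomas, from limma, with bars of 1 SE; black points use all 6 gliomas and the points under them leave out PDGF-B replicate 3, filled where the adjusted p was at most 0.05. No black point reached that threshold, and 9 of 34 members did without PDGF-B replicate 3.

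PDGF-B replicates 1 and 2 were also the low libraries for most of the enzymes, lying under every EGFRvIII glioma in 11 of 13, as in 23.5% of all genes. This split was noticed after the values were seen. Pfkl, the liver-type phosphofructokinase at the committed step, had 32.7, 26.3 and 104 CPM in the PDGF-B gliomas, against 110.3, 127 and 110.1 CPM in the EGFRvIII gliomas and 30.9 CPM in the culture. Its groups did not overlap, by a narrow gap at PDGF-B replicate 3, and the log2 fold change was -1.37 ± 0.48 with an adjusted p of 0.209 in limma, or -1.98 ± 0.20 with 0.00305 without that library. Ldha, which turns pyruvate into lactate, had 152, 146 and 398 CPM in the PDGF-B gliomas, against 371, 786 and 362 CPM in the EGFRvIII gliomas and 328 CPM in the culture. PDGF-B replicate 3 exceeded 2 EGFRvIII gliomas, and the log2 fold change was -1.19 ± 0.47 with an adjusted p of 0.264, or -1.67 ± 0.37 with 0.0480 without that library. Aldoa, an aldolase, had 223, 302 and 457 CPM in the PDGF-B gliomas, against 479, 917 and 451 CPM in the EGFRvIII gliomas and 335 CPM in the culture. Its log2 fold change was -0.90 ± 0.37 with an adjusted p of 0.283.

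By level per exon kilobase, averaged over the gliomas, Pkm led with 172 CPM, ahead of Aldoa with 162 and Pgam1 with 158, while Vegfa led the hypoxia-induced genes with 76.1. This order takes each gene alone. It leaves out reads held by the near-identical copies of Eno1 and Pgk1 described below, so the true order of the enzymes is uncertain. Pkm, a pyruvate kinase gene, had 518, 523 and 819.7 CPM in the PDGF-B gliomas, against 776, 1652 and 859 CPM in the EGFRvIII gliomas and 968 CPM in the culture. Pgam1, a phosphoglycerate mutase, had 190.3, 207 and 313 CPM in the PDGF-B gliomas, against 272, 575 and 324 CPM in the EGFRvIII gliomas and 382 CPM in the culture. For both, EGFRvIII replicate 2 was far above every other glioma, and it was the highest glioma for 9 of 13 enzymes against 32% of all genes. Tpi1, Gapdh, Pgk1, Eno1 and Gpi1, other enzymes of the chain, had log2 fold changes from -1.11 for Tpi1 down in size to -0.52 for Gpi1, with none called. Hk1, the constitutive hexokinase, Pfkp, the platelet-type phosphofructokinase, and Eno2, the neuronal enolase, lay between -0.09 for Hk1 and 0.24 for Pfkp. The isoforms Hk1 and Pfkp therefore gave far smaller distances than Hk2 and Pfkl, though the difference between isoforms was not tested.

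Several levels are uncertain because reads can be shared. Eno1b, a near-identical copy of Eno1, held between 61.6% and 63.7% of their summed reads in the 7 libraries, and Pgk1-rs7 held between 35.1% and 44.6% of its sum with Pgk1. Eno1 with Eno1b averaged 604 CPM in the PDGF-B gliomas, against 908 CPM in the EGFRvIII gliomas and 864 CPM in the culture. Pgk1 with Pgk1-rs7 averaged 199 CPM in the PDGF-B gliomas, against 361 CPM in the EGFRvIII gliomas and 395 CPM in the culture. Gapdh overlaps Iffo1 on the other strand, which held between 51.6% and 71.7% of the summed reads of the pair in the PDGF-B gliomas, against 22.6% to 47.4% in the EGFRvIII gliomas and 19.7% in the culture. The sum of that pair averaged 171 CPM in the PDGF-B gliomas and 160.5 CPM in the EGFRvIII gliomas. Iffo1 is a gene of its own and was higher in every PDGF-B glioma than in every EGFRvIII glioma. The sum therefore cannot show whether Gapdh differed. Aldoa overlaps Fam57b, which held 9.94% to 23.4% of the sum in the PDGF-B gliomas, against 4.55% to 11.3% in the EGFRvIII gliomas. Their sum averaged 395 CPM in the PDGF-B gliomas, against 664 CPM in the EGFRvIII gliomas. Pfkp overlaps Pitrm1, which held 35.00% to 38.7% in the PDGF-B gliomas, against 39.7% to 46.2% in the EGFRvIII gliomas, with a mean sum of 164 CPM in the PDGF-B and 156 CPM in the EGFRvIII gliomas.

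The hypoxia-induced genes were set against the enzymes within each library by the difference of their mean log2 CPM. The hypoxia-induced mean was 3.44, 3.63 and 5.23 in the PDGF-B gliomas, against 4.79, 4.87 and 4.97 in the EGFRvIII gliomas and 3.78 in the culture. The enzyme mean was 6.88, 6.98 and 7.86 in the PDGF-B gliomas, against 7.63, 8.30 and 7.77 in the EGFRvIII gliomas and 7.45 in the culture. Among the gliomas, both classes thus had the same 2 low libraries, and EGFRvIII replicate 2 was highest for the enzymes but not for the hypoxia-induced genes. The culture lay under the remaining gliomas in both classes, by more for the hypoxia-induced genes. The hypoxia-induced mean minus the enzyme mean was -3.14 ± 0.44 in the PDGF-B gliomas (SD, n = 3), against -3.02 ± 0.35 in the EGFRvIII gliomas (SD, n = 3) and -3.68 in the culture. The glioma groups overlapped, and their difference of -0.12 was smaller than the pooled SD of 0.40. From class medians instead of means, the difference between the groups was -0.51. With Ldha, Pgk1, Aldoa and Eno1 moved to the induced class, it was -0.25 from means. In the first measure every glioma exceeded the culture, by 0.54 on average for the PDGF-B gliomas and 0.66 for the EGFRvIII gliomas, with no replicate of the culture to give its error. With those enzymes moved, these became 0.23 for the PDGF-B gliomas and 0.48 for the EGFRvIII gliomas. The spread within groups differed between classes: the median SD of log2 CPM over the hypoxia-induced genes was 1.02 in the PDGF-B gliomas and 0.36 in the EGFRvIII gliomas, over the enzymes 0.52 in the PDGF-B and 0.47 in the EGFRvIII gliomas, and over all genes 0.27 in the PDGF-B and 0.39 in the EGFRvIII gliomas.

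**Figure D4:**
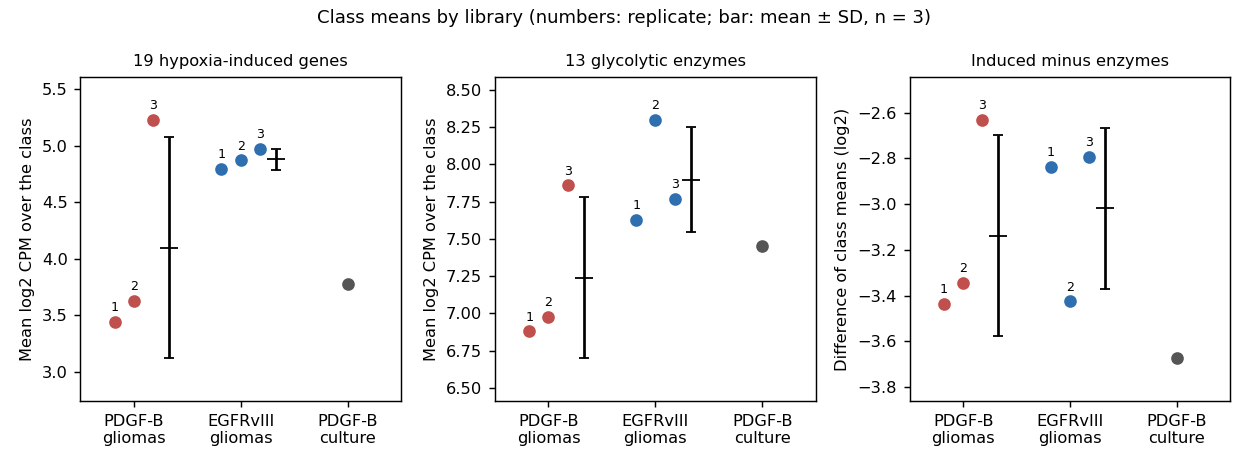
Mean log2 CPM of the 19 hypoxia-induced genes, of the 13 enzymes, and the difference of the classes, per library. Points are libraries, numbered by replicate; bars are the group mean and SD of 3 gliomas, and the culture has 1 library. PDGF-B replicates 1 and 2 are lowest of the gliomas in both classes, and all 6 gliomas exceed the culture in the difference.

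Against the culture, Epas1, Adm and Slc2a3 rose in both glioma groups and no member was called lower. In the PDGF-B gliomas limma called 3 of 34 members higher and none lower, against 9.45% of all genes in either direction. The 3 were Epas1, with a log2 fold change of 4.76 ± 0.68 (adjusted p = 0.00748), Adm with 2.18 ± 0.51 (adjusted p = 0.0412) and Slc2a3 with 1.21 ± 0.25 (adjusted p = 0.0269). In the EGFRvIII gliomas limma called 4 of 34 members higher and none lower, against 9.55% of all genes. They were Epas1 with 2.90 ± 0.68 (adjusted p = 0.0406), Adm with 2.40 ± 0.51 (adjusted p = 0.0288), Slc2a3 with 1.21 ± 0.25 (adjusted p = 0.0245) and Ankrd37 with 2.51 ± 0.63 (adjusted p = 0.0497). The shares are near those of all genes. The culture comparisons share their single culture library, so the recurrence of Epas1, Adm and Slc2a3 is not independent. None of the 13 enzymes was called in either comparison, and at an unadjusted p under 0.05 limma counted 1 of 13 for the PDGF-B gliomas, against 27.2% of all genes, and 3 of 13 for the EGFRvIII gliomas, against 23.9%. The median log2 fold change of the hypoxia-induced genes was 0.32 in the PDGF-B gliomas and 1.18 in the EGFRvIII gliomas, that of the enzymes -0.43 in the PDGF-B gliomas and 0.24 in the EGFRvIII gliomas, and that of all genes 0.04 in the PDGF-B gliomas and 0.01 in the EGFRvIII gliomas.

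All 6 gliomas lay above the 1 culture library for 10 of 34 members, as for 27.8% of all genes. Of the 10, 8 came from the 19 hypoxia-induced genes, the largest class of members. Eno2 was the single enzyme among the 10, with 43.2, 63.4 and 81.2 CPM in the PDGF-B gliomas, against 51.6, 53.03 and 76.8 CPM in the EGFRvIII gliomas and 26.7 CPM in the culture. Pfkp was the single member with all 6 below the culture, with 102, 104 and 105 CPM in the PDGF-B gliomas, against 74.4, 84.9 and 106 CPM in the EGFRvIII gliomas and 139.5 CPM in the culture. Neither passed the test in a culture comparison. These calls depended on single libraries. Where the library left out was of the other glioma group, the log2 fold changes stayed the same. Only the spread shared by the groups in the fit changed. Without PDGF-B replicate 3, limma called 7 of 34 members for the PDGF-B gliomas, the 3 above and Car9, Pdk1, Hk2 and Pfkfb3, which were lower than in the culture, against 13.2% of all genes in either direction and 3.72% lower. For the EGFRvIII gliomas 9 of 34 were called without it, against 11.7% of all genes, adding Slc16a3, Pdk1, Bnip3, P4ha1 and Pfkl on the higher side, and no member was called without EGFRvIII replicate 1 (6.22% of all genes) or without EGFRvIII replicate 3 (6.07%). For the PDGF-B gliomas 1 member, Epas1, was called without PDGF-B replicate 2 (6.05% of all genes) or without EGFRvIII replicate 3 (6.24%), and for the EGFRvIII gliomas 2 members, Adm and Slc2a3, without PDGF-B replicate 1 (7.18%). Over the 12 alternatives and left-out libraries tried, Epas1 stayed called in 12 for the PDGF-B gliomas and in 5 for the EGFRvIII gliomas, Slc2a3 in 8 for the PDGF-B and in 9 for the EGFRvIII gliomas, Adm in 5 for the PDGF-B and in 7 for the EGFRvIII gliomas, and Ankrd37 in 3 for the EGFRvIII gliomas. Microglia and macrophage markers moved with these comparisons too. Called higher were 16 of 18 in the PDGF-B gliomas, against 7.73% of all genes, and 18 of 18 in the EGFRvIII gliomas, against 8.2%. Their sums are given above, and mitosis genes summed to 4452 CPM in the culture. Their part in the culture comparisons was not tested.

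**Figure D5:**
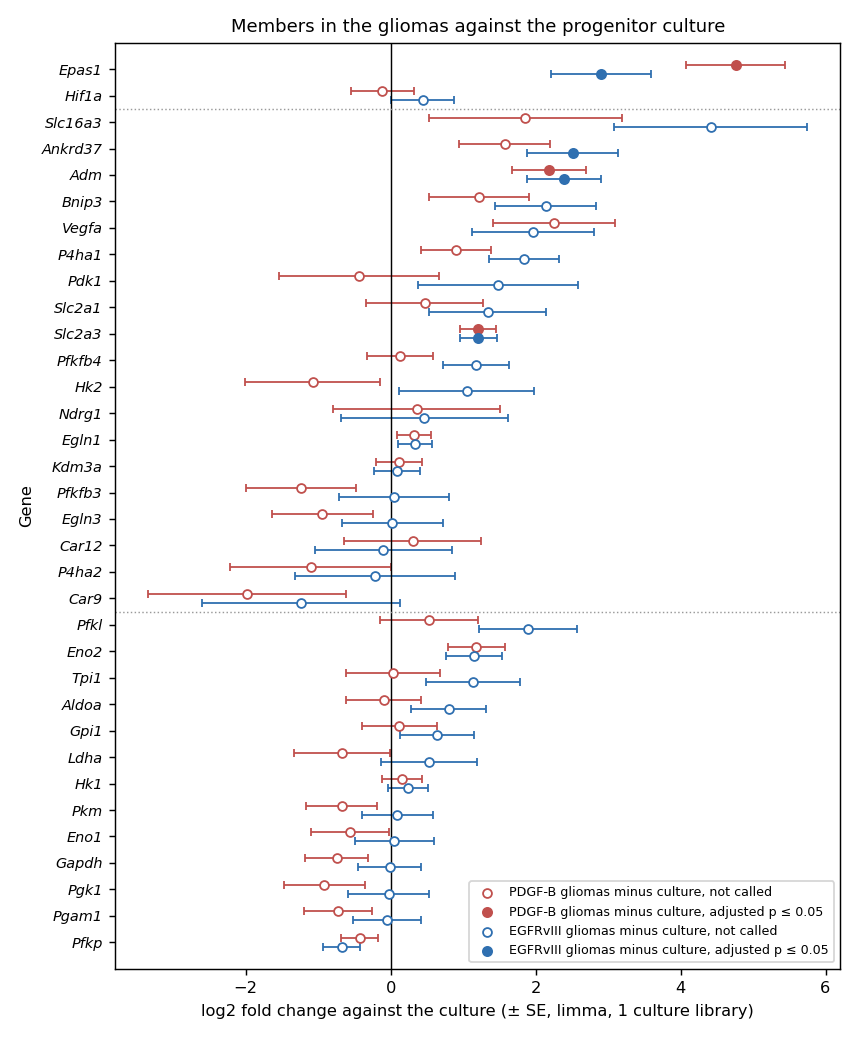
Log2 fold change of each member against the culture, from limma, for PDGF-B gliomas and for EGFRvIII gliomas, with bars of 1 SE; filled points had an adjusted p of at most 0.05. Epas1, Adm and Slc2a3 are filled for both groups and Ankrd37 for the EGFRvIII gliomas, while no enzyme is.

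Other genes of the same pathways were read from the same fits: 40 of 41 listed hypoxia genes and 29 of 31 listed glycolysis genes were measured. Between the glioma groups, 4 of these 69 genes were lower in the PDGF-B gliomas and none was higher, against 2.63% of all genes lower. Lox, which crosslinks collagen, had 2.97, 3.51 and 2.66 CPM in the PDGF-B gliomas, against 13.6, 12.3 and 10.5 CPM in the EGFRvIII gliomas and 0.376 CPM in the culture, a log2 fold change of -1.97 ± 0.27 between the glioma groups (adjusted p = 0.0245, limma). Ppfia4, a liprin, had 3.76, 4.51 and 11.9 CPM in the PDGF-B gliomas, against 29.5, 47.8 and 32.2 CPM in the EGFRvIII gliomas and 1.04 CPM in the culture, with -2.59 ± 0.45 (adjusted p = 0.0326). Hmox1, the haem-degrading enzyme, had 20.04, 46.5 and 65.1 CPM in the PDGF-B gliomas, against 314, 2380.0 and 553 CPM in the EGFRvIII gliomas and 24.00 CPM in the culture, with -4.24 ± 0.76 (adjusted p = 0.0344). For each of the 3, every PDGF-B glioma lay under every EGFRvIII glioma, as for 4 of the 34 members. The fourth was Hk3, a hexokinase, with 0.990, 0.848 and 4.12 CPM in the PDGF-B gliomas, against 11.9, 27.1 and 12.8 CPM in the EGFRvIII gliomas and 0 reads in the culture. In these genes PDGF-B replicate 3 exceeded replicates 1 and 2 in 26 of 40 hypoxia genes and in 12 of 29 glycolysis genes. Over all genes it did so in 39.5%, so the other glycolysis genes were near that share. Replicates 1 and 2 lay under every EGFRvIII glioma in 29 of 69, as in 23.5% of all genes. None of the 69 was called with the replicate number as a block or without any single one of the gliomas other than PDGF-B replicate 3. Without that library 8 were called, against 7.36% of all genes. Against the culture, 4 of the 69 were higher and 1 was lower in the PDGF-B gliomas, and 10 were higher and 1 was lower in the EGFRvIII gliomas, where 7.73% of all genes were higher for the PDGF-B gliomas and 8.2% for the EGFRvIII gliomas. Lox had log2 fold changes of 2.83 ± 0.42 in the PDGF-B gliomas (adjusted p = 0.00806, limma) and 4.80 ± 0.42 in the EGFRvIII gliomas (adjusted p = 0.000857). Set against the limit that 0 counts allow in the culture, 3 reads or 0.0868 CPM, Hk3 was at least 22.9-fold higher in the PDGF-B gliomas and at least 199-fold higher in the EGFRvIII gliomas. Pdk2, a further kinase of pyruvate dehydrogenase, rose in the PDGF-B gliomas by 1.79 ± 0.39 (adjusted p = 0.0314), and Ppfia4 rose in the EGFRvIII gliomas by 5.02 ± 0.65 (adjusted p = 0.00391). Gpd2, the mitochondrial glycerol phosphate dehydrogenase, was the lower one in both, with 40.1, 37.6 and 44.2 CPM in the PDGF-B gliomas, against 41.99, 35.3 and 31.01 CPM in the EGFRvIII gliomas and 97.4 CPM in the culture.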

How the data were processed

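Messenger RNA of 7 sorted libraries was analysed. The deposited values are log2 CPM of 17422 genes per library, made by the authors from reads scaled to library size, per the file headers of all files but that of EGFRvIII replicate 3, whose values have the same range. Per the submitters' processing notes, STAR, edgeR and mm10 were used; the sources used here state no versions, counting step or use of strand. The labels' protocols name poly(A) selection as well as depletion of ribosomal RNA.

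All libraries share a floor of -4.12. The values fit reads with a prior count of 2, in steps of 0.01 read within a tolerance of 0.001, so CPM without the prior is printed. Between 36.2% and 38.6% of values were whole reads within 0.02. Counts with fractions are estimates, so no count model was run. Symbols came from GENCODE M21 of GRCm38 for 17254 genes; 168 had none.

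The deposited log2 values of all genes were tested with limma 3.58.1 in R 4.3.3 (intensity trend, robust moderation, Benjamini-Hochberg adjustment over all genes, calls at an adjusted p of 0.05). The glioma groups were compared in the 6 gliomas, and the culture comparisons used all 7 libraries, both with 4 residual degrees of freedom. The culture is assumed to vary like the gliomas. P-values measure the spread between these libraries. Fold changes include the prior and understate those of genes with few reads. The scripts were tested on simulated data. Tables were made with pandas 2.3.3 in Python 3.11.15.

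The members and lists were chosen with earlier results of these data known. Values are given for members called in a comparison, for the 3 of smallest p and the 3 most abundant per exon kilobase in each class, and for Hif1a, Epas1, Vegfa, Car9, Slc2a1 and Ldha; other pathway genes are named up to 3 per direction by smallest p. Marker lists of endothelial and mural cells, neurons, astrocytes and red blood cells were also read.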

Additional observations from a re-analysis of the deposited data

How the results depend on the processing

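Between the glioma groups, no member was called under quantile normalization, a median shift, library totals without scaling factors, log2(CPM + 1), a CPM minimum, no trend and no robust moderation, or the replicate block. Leaving out 1 glioma at a time gave 0 to 9 called members, 9 without PDGF-B replicate 3. No clear pairing by replicate number was seen (r = 0.17, -0.04 and -0.08 between same-numbered gliomas), but 3 pairs cannot exclude it. With the block 18 genes were called, against 583 without it. The 4 other pathway genes called became 0 with the replicate block and 1 with no trend and no robust moderation, and leaving out libraries gave 0 to 8. For PDGF-B gliomas against the culture, the 3 called members became 1 with no trend and no robust moderation and 1 to 7 with libraries left out, and the 5 other pathway genes became 2 and 2 to 10. For EGFRvIII gliomas against the culture, the 4 called members became 1 under quantile normalization, 0 with no trend and no robust moderation and 0 to 9 with libraries left out. The class difference between EGFRvIII gliomas and culture, 0.66 from means, was 1.38 from medians, and the cause was not tested. From medians it was 0.88 for PDGF-B gliomas against the culture and -0.51 between the glioma groups. Leaving out libraries gave 0.55 to 0.86 for EGFRvIII gliomas against the culture, 0.29 to 0.69 for PDGF-B gliomas against the culture and -0.37 to 0.03 between the glioma groups, all from means. Summing Eno1 and Pgk1 with their copies, added after seeing the data, left these differences at -0.12, 0.56 and 0.68. Against the culture, quantile normalization shifted the median of all genes by -0.13 for PDGF-B gliomas and -0.21 for EGFRvIII gliomas, and the median shift moved it by 0.12 for PDGF-B gliomas. No called direction reversed. Between the glioma groups, where no member was called, the sign of the log2 fold change varied with the setting for Vegfa (-0.42 to 0.73), Adm (-0.62 to 0.08), Car12 (-0.22 to 0.83), Ndrg1 (-1.07 to 0.48), Slc2a3, Egln1, Kdm3a, Hk1 and Eno2. Depth limits Car9, Car12, Ankrd37 and P4ha2, and 3 gliomas per group and 1 culture limit all tests.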

Other observations

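Of the 17388 genes that are not members, Smo, Znfx1 and Ppan had the highest Pearson correlation with the mean log2 CPM of the hypoxia-induced genes over the 6 gliomas, with r of 0.995, 0.995 and 0.993. The 3 were picked as the highest of all, the 6 libraries share the split between PDGF-B replicates 1 and 2 and the rest, and the values are a description. Smo, the signal transducer of the Hedgehog pathway, had 18.3, 19.1 and 37.6 CPM in the PDGF-B gliomas, against 30.8, 30.01 and 33.2 CPM in the EGFRvIII gliomas and 63.7 CPM in the culture.

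Among markers of other cell types, endothelial and mural genes were called for none of 13 between the glioma groups in limma, with sums of 789 to 1388 CPM in the PDGF-B gliomas, against 631 to 778 CPM in the EGFRvIII gliomas and 119 CPM in the culture. Cspg4 alone made up most of these sums. The mean log2 CPM over the 13 genes was 0.26 to 1.10 in the PDGF-B gliomas, against 1.21 to 1.56 in the EGFRvIII gliomas, and the median log2 fold change was -1.06. Astrocyte markers summed to 2301 to 4194 CPM in the PDGF-B gliomas, against 8404 to 12610 CPM in the EGFRvIII gliomas and 1568 CPM in the culture. Their mean log2 CPM was instead highest in PDGF-B replicate 3, with 7.33, so sums and means ordered the libraries differently. Between the glioma groups 1 of 8 was called higher and 1 lower, against 3.35% of all genes in either direction. The median log2 fold change of the 8 was -0.33. Neuronal markers summed to 103 to 211 CPM in the PDGF-B gliomas, against 59.4 to 125 CPM in the EGFRvIII gliomas and 44.04 CPM in the culture, with none of 8 called between the glioma groups. Red blood cell genes summed to 0.955 to 10.3 CPM in the PDGF-B gliomas, against 2.76 to 89.2 CPM in the EGFRvIII gliomas, where EGFRvIII replicate 2 was the highest, and 0.159 CPM in the culture.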
